A study of Mus musculus with 4 samples.

Results

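The immediate early and stress response genes examined here are 34 genes of the FOS, JUN, EGR, NR4A, DUSP, IER and KLF families and related regulators. They were taken from a fixed list of symbols, through probe sets that name 1 gene alone, with the mean taken where a gene had more than 1. All 34 were measured, out of 19938 genes, by 35 probe sets; Socs3 had 2. The study used microarrays on dermal papilla cells, the mesenchymal cells that sit at the base of the hair follicle and signal to its matrix. From skin of mice at postnatal day 5, cells positive for both a green fluorescent protein reporter of Sox2 and integrin alpha 9 were sorted. The 2 groups were Sox2 heterozygotes (Het) and Sox2 conditional knockouts (cKO), with 2 arrays each, so the control animals carry a single working copy of Sox2, and cells of both groups passed a gate that needs the reporter's signal. The Cre driver, the sex of the animals, and whether animals were pooled are not stated in the labels.

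Immediate early genes are switched on quickly by growth factor and stress signals without new protein synthesis, largely through the kinases ERK, JNK and p38 and the promoter-bound factors SRF and CREB. FOS and JUN proteins pair to form AP-1, EGR proteins are zinc finger transcription factors, NR4A proteins are nuclear receptors without a known classical ligand, and DUSP phosphatases switch the kinases off again. Enzymatic dissociation and sorting of tissue are known to induce many of these genes, together with heat shock genes, so that they report on the treatment of cells as well as on their state in the animal. Egr2, also called Krox20, has roles that go beyond this: it patterns the hindbrain, directs myelination in Schwann cells and marks progenitors of the hair shaft.

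Each value below is a log2 difference of an array from the probe set's median over the 4 arrays, because the deposited values had been centred in that way. Only differences between arrays can be read, not expression levels, and for a gene with 1 probe set the middle pair of arrays always lies at equal distances above and below 0. The labelled cell type could therefore not be checked against the level of its markers. The array medians lay between -0.0037 and 0.0043. Sox2 stood at 0.96 and 0.87 in Het 1 and Het 2 and at -0.87 and -0.94 in cKO 1 and cKO 2. Whether its probe set falls within the deleted sequence was not examined. Sex-linked RNA also differed between the groups. Xist, expressed from the inactive X of female cells, was at -4.08 in Het 1, -0.85 in Het 2, 0.85 in cKO 1 and 1.23 in cKO 2. The Y-linked Eif2s3y was at 1.18, 0.79, -0.87 and -0.79 in the same order, and the part of sex in the values below was not tested. With 2 arrays a group, p-values measure only the spread between these samples, which may be technical in part, and the number of arrays limits the precision. Less RNA per cell and fewer cells of a type cannot be told apart in sorted bulk samples.

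Short stretches of promoter are shown first, because they hold the elements through which this class of genes is best known to respond. RefSeq promoter windows (GRCm38.p6, 250 bases before to 50 bases after an annotated start) were matched for 28 of the 34 genes. Arc, Egr1, Egr3, Fosl1, Ier2 and Myc had no window and were not searched. Elements outside a window were not searched for any gene, so a gene not named below may still hold one. The CArG box, the element bound by SRF, was found in the windows of Egr2, Dusp5 and Zfp36, or 3 of 28 genes (10.7%, against 1.81% of all 27025 genes with a window). Each stretch is 30 bases on the strand of the gene, with the box in capitals; Dusp5 holds a pair of adjoining boxes.
Egr2, chr10:67537787-67537816, + strand: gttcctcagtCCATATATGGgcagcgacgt
Egr2, chr10:67537484-67537513, + strand: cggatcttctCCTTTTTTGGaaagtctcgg
Dusp5, chr19:53529053-53529082, + strand: ggggaaatacCCATATTTGGCCTTATATGG
Zfp36, chr7:28379267-28379296, - strand: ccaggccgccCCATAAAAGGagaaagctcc
The first Egr2 box lies in the windows of 3 of the 5 Egr2 starts in the table. The cyclic AMP response element TGACGTCA is its own reverse complement and is bound by CREB and ATF factors. It was found in 3 other genes, Dusp1, Btg2 and Maff (10.7%, against 2.03% of the same 27025 genes). The element is in capitals here.
Dusp1, chr17:26508597-26508626, - strand: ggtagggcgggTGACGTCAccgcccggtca
Btg2, chr1:134079303-134079332, - strand: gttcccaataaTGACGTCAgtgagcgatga
Maff, chr15:79347480-79347509, + strand: ggctggggcggTGACGTCActgcatgactg
These matches are descriptions of letters and not evidence of binding.

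Egr2 had the largest difference of the 34 genes between the groups and was low in both cKO arrays. It stood at 0.48 in Het 1 and 0.69 in Het 2, and at -0.48 in cKO 1 and -1.05 in cKO 2. Every Het array was thus above every cKO array, and the lowest value was that of cKO 2. cKO minus Het gave -1.35 ± 0.23 (SE of the limma fit with n = 2 in each group), or 2.55-fold lower in cKO, the 11th lowest of 19938 genes. Adjusted over all genes, limma did not call it (adjusted p = 0.897, unadjusted p = 0.00642), and without any single array it lay between -1.07 and -1.64. Egr2 was named with its value already known, so its rank is a description.

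The other EGR genes did not share this difference in size. Egr1, the most widely used marker of early growth factor signalling, stood at 0.11 and 0.09 in Het and at -0.55 and -0.09 in cKO. Its groups did not overlap, but cKO 2 lay closer to the Het arrays than to cKO 1. The difference was -0.42 ± 0.18 (adjusted p = 0.950, limma), and it shrank to -0.19 without cKO 1 and grew to -0.65 without cKO 2. Egr3, which acts in muscle spindle development and in lymphocytes, stood at -0.25 and 0.02 in Het and at -0.02 and 0.05 in cKO, a difference of 0.13 ± 0.11 with overlapping groups. Egr4, best known from germ cells and neurons, stayed between -0.04 and 0.10 in the 4 arrays. Averaged over Egr1, Egr3 and Egr4, the Het arrays were at -0.04 and 0.02 and the cKO arrays at -0.16 and -0.02. Egr2 minus this average was 0.52 and 0.67 in Het and -0.32 and -1.03 in cKO. Of the genes encoding NAB corepressors, which bind EGR proteins and limit their activity, Nab2 differed by -0.17 ± 0.10 with separated groups, and Nab1 had overlapping groups.

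**Figure D1:**
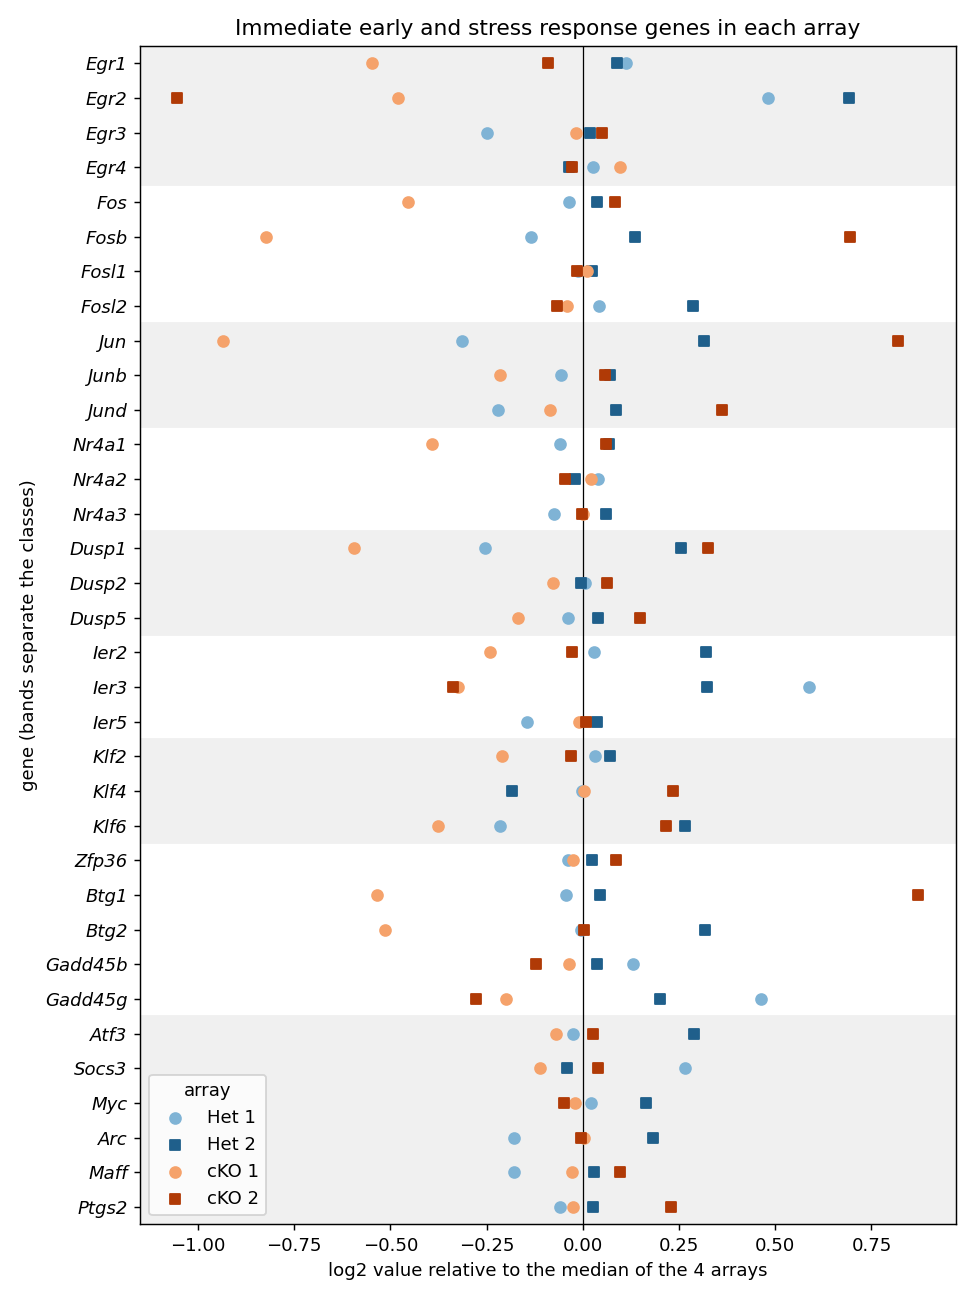
Values of the 34 genes in each of the 4 arrays (x axis, log2 relative to the median of the arrays; y axis, genes in bands by class; circles are replicate 1 and squares replicate 2, blue is Het and orange to brown cKO). Both cKO arrays are to the left of both Het arrays for Egr2, whereas for Jun, Fosb and Btg1 cKO 1 is the lowest and cKO 2 the highest array.

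Among the 7 AP-1 genes, Jun and Fosb differed far more between the cKO arrays than between the groups, and Fosl2 did not. A difference between 2 single arrays spreads more widely than one between 2 means. The groups overlapped in 6 of the 7 genes, and in 66.5% of all 19938 genes. Jun, the main DNA-binding partner in AP-1, stood at -0.31 and 0.31 in Het 1 and Het 2, and at -0.94 in cKO 1 and 0.82 in cKO 2. The cKO arrays thus enclosed both Het arrays. The distance from cKO 1 to cKO 2 was 1.75, or 3.37-fold, the largest rise from cKO 1 to cKO 2 of all 19938 genes, while the difference between the groups was -0.06 ± 0.70. Fosb, a FOS protein of sustained stimulation, stood at -0.14 and 0.14 in Het and at -0.82 and 0.69 in cKO, and its rise within cKO was the 5th largest. Fos, the classical immediate early gene, stood at -0.04 and 0.04 in Het and at -0.45 and 0.08 in cKO; 3 arrays were close together and cKO 1 was low. Its difference between the groups was -0.19 ± 0.21 (adjusted p = 0.992, limma), and without cKO 1 it was 0.08. Junb, a less active JUN protein, stood at -0.06 and 0.07 in Het and at -0.21 and 0.06 in cKO. Jund, the JUN gene usually expressed without a stimulus, stood at -0.22 and 0.09 in Het and at -0.09 and 0.36 in cKO, with replicate 2 above replicate 1 in both groups. Fosl1 stayed between -0.02 and 0.02. Fosl2, which encodes a late FOS protein, was the 1 AP-1 gene with separated groups, at 0.04 and 0.29 in Het and -0.04 and -0.07 in cKO (-0.22 ± 0.10, adjusted p = 0.958, limma). The difference was -0.10 without Het 2 and -0.34 without Het 1.

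The NR4A and DUSP genes overlapped between the groups in all 6 cases, against 66.5% of all genes. Nr4a1, an orphan nuclear receptor gene, stood at -0.06 and 0.07 in Het and at -0.39 and 0.06 in cKO, again with only cKO 1 apart. Nr4a2 and Nr4a3 stayed between -0.08 and 0.06. Dusp1, whose product inactivates p38 and JNK, stood at -0.26 and 0.26 in Het and at -0.59 and 0.32 in cKO. Replicate 2 was above replicate 1 in both groups, as it was for Jun, Fosb, Fos, Junb, Jund, Nr4a1 and Dusp5. The difference between the groups for Dusp1 was -0.13 ± 0.40. Dusp5, a nuclear ERK phosphatase gene, stood at -0.04 and 0.04 in Het and at -0.17 and 0.15 in cKO, a difference of -0.01 ± 0.13. Dusp2 stayed between -0.08 and 0.06. Of the searched genes with a CArG box in a window, Egr2 was thus at -1.35, Dusp5 at -0.01 and Zfp36, which encodes an mRNA decay factor, at 0.04 ± 0.06. The part of SRF in these values was not tested.

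Set side by side, Egr2 separated the groups and the mean of the 13 FOS, JUN, NR4A and DUSP genes did not. That mean was -0.09 in Het 1, 0.10 in Het 2, -0.29 in cKO 1 and 0.19 in cKO 2, a difference of -0.06 between the groups, with an SD of 0.13 within Het and 0.34 within cKO. The 2 cKO arrays held the lowest and the highest mean, and Egr2 was at its lowest in the array where the mean of these 13 genes was highest. Egr2 minus the mean was 0.57 and 0.59 in Het and -0.19 and -1.24 in cKO, a difference of -1.29. Without cKO 2 this difference was -0.77 and without cKO 1 it was -1.82. Class by class, the mean differences were -0.12 for FOS, 0.02 for JUN, -0.06 for NR4A and -0.05 for DUSP, and each of these 4 class means was above 0 without cKO 1 and below 0 without cKO 2. The EGR mean difference was -0.40, with Egr2 the furthest from 0 of its 4 genes, and it stayed between -0.35 and -0.45 without any single array. Since the genes were chosen with earlier results known, no p-value is given for these means.

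**Figure D2:**
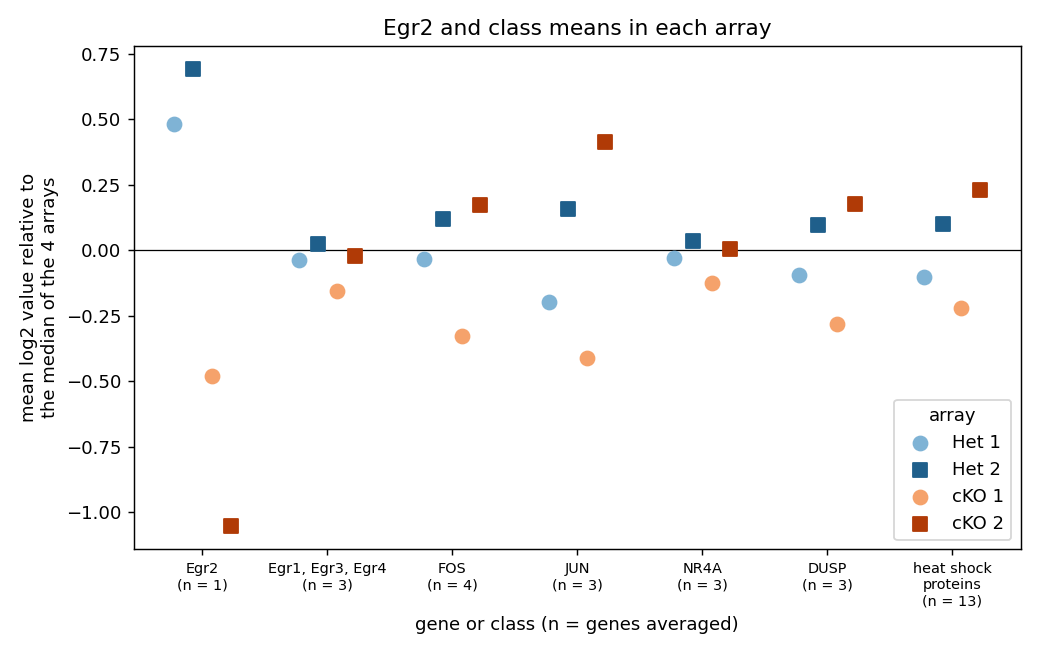
Egr2 and the mean of each class in each array (y axis, log2 relative to the median of the arrays; n is the number of genes averaged, heat shock proteins added for comparison; circles are replicate 1 and squares replicate 2). Egr2 is at -0.48 and -1.05 in the cKO arrays, while the JUN mean is at -0.41 in cKO 1 and at 0.41 in cKO 2.

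Outside these families, Ier3, Gadd45g and Ier2 were lower in both cKO arrays than in either Het array, with differences of at least 0.3. Ier3, a stress-inducible gene that modulates cell survival and ERK signalling, stood at 0.59 and 0.32 in Het and at -0.32 and -0.34 in cKO. The cKO arrays lay close together, and the difference was -0.79 ± 0.11, or 1.73-fold lower (adjusted p = 0.897, limma). Gadd45g, a growth arrest and DNA damage response gene, stood at 0.46 and 0.20 in Het and at -0.20 and -0.28 in cKO, a difference of -0.57 ± 0.11 (adjusted p = 0.897, limma). Both genes were highest in Het 1, whereas Egr2 and all 7 FOS and JUN genes were higher in Het 2 than in Het 1. Ier2, a nuclear protein gene of the early response, stood at 0.03 and 0.32 in Het and at -0.24 and -0.03 in cKO (-0.31 ± 0.14), and at -0.16 without Het 2. Ier3 minus the mean of the 13 FOS, JUN, NR4A and DUSP genes was 0.67 and 0.22 in Het and -0.03 and -0.53 in cKO.

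The remaining genes were mixed. Btg2, an antiproliferative p53 target with a cyclic AMP response element in its window, stood at -0.00 and 0.32 in Het and at -0.52 and 0.00 in cKO (-0.41 ± 0.23), so its groups met near 0 and overlapped. Its relative Btg1 had the arrays in the same order as Jun and Fosb, at -0.04 and 0.04 in Het and at -0.53 and 0.87 in cKO. Klf6, a zinc finger factor gene induced by injury, stood at -0.22 and 0.26 in Het and at -0.38 and 0.22 in cKO, with both replicates 1 low and both replicates 2 high. Klf4, a factor of epithelial differentiation, was the 1 gene with separated groups and a higher value in cKO, at -0.00 and -0.19 in Het and 0.00 and 0.23 in cKO (0.21 ± 0.12, adjusted p = 0.972, limma); Het 1 and cKO 1 differed by less than 0.01. Klf2, Gadd45b and Myc were lower in both cKO arrays by small amounts, with differences of -0.17 ± 0.08, -0.16 ± 0.06 and -0.13 ± 0.06. Atf3, Socs3, Arc, Maff, Ptgs2, Ier5 and Zfp36 overlapped between the groups, with differences from -0.15 (Atf3) to 0.12 (Ptgs2). The 2 probe sets of Socs3 differed by -0.21 and -0.09. Maff, which also holds the cyclic AMP response element, differed by 0.11 ± 0.10. Btg1 and Klf6 are singled out after their values were seen.

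**Figure D3:**
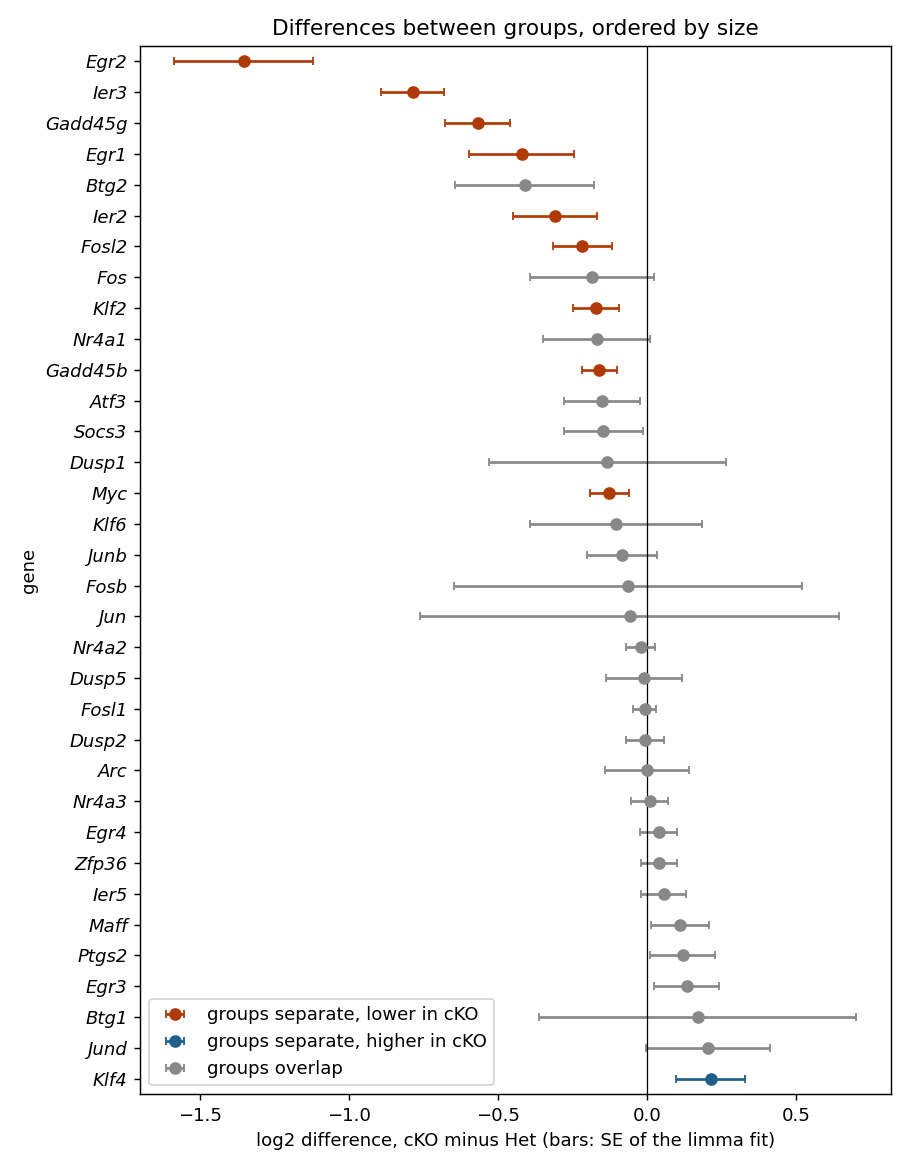
Difference between the groups for each of the 34 genes, ordered by size (x axis, log2, cKO minus Het; bars are the SE of the limma fit, n = 2 arrays per group; colours mark whether the groups separate). Egr2 lies at -1.35 and Ier3 at -0.79, and the bars are widest for Jun, Fosb and Btg1, whose cKO arrays lie far apart.

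Counted over the list, limma called 0 of 34 genes at the threshold of 0.05 on the adjusted p, and 0% of all genes. At an unadjusted p under 0.05 there were 3 genes lower in cKO, Egr2, Ier3 and Gadd45g, or 8.82% against 3.41% of all genes, and 0 higher against 1.87%. Groups did not overlap for 9 genes lower in cKO (26.5%, against 15.6% of all genes) and for 1 gene higher (2.94%, against 17.8%). With a difference of at least 0.3 as well, there were 5 genes lower, Egr2, Ier3, Gadd45g, Egr1 and Ier2 (14.7%, against 3.01% of all genes), and 0 higher, against 0.938%. Of the 34 genes 24 were below 0 (70.6%, against 47.7% of all genes), with a median difference of -0.07 against 0.00. These counts leaned on single arrays. Without Het 2 or without cKO 1 there were 16 genes below 0 in each case and the median was 0.01 and 0.03, and without Het 1 or without cKO 2 there were 25 and the median was -0.17 and -0.20. Groups separated for 20 genes without Het 1 or without Het 2 (62.0% and 67.4% of all genes) and for 24 without cKO 1 or without cKO 2 (71.1% and 65.9%). The number at an unadjusted p under 0.05 was then 6, 4, 7 and 9, in the order Het 1, Het 2, cKO 1 and cKO 2, where 3.86%, 6.07%, 8.26% and 5.41% of all genes were under it in either direction.

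Counts were also made between the arrays of 1 group. From cKO 1 to cKO 2, 5 of 34 genes were at least 1.5-fold higher (14.7%), against 0.547% of all genes: Jun, Fosb, Btg1, Dusp1 and Klf6. None of the 34 was 1.5-fold lower, against 1.63% of all genes; Egr2 came nearest, with cKO 2 below cKO 1 by 0.57 on the log2 scale, or 1.49-fold. Between the Het arrays, Jun alone of the 34 was at least 1.5-fold higher in Het 2 (2.94%, against 0.241% of all genes), and 0 were lower by that factor, against 1.22%. cKO 1 was the lowest array for 16 genes (47.1%, against 24.6% of all genes). Replicate 2 was above replicate 1 within Het for 25 of the 34 genes (73.5%, against 50.5% of all genes). Within cKO the same held for 23 genes (67.6%, against 52.9% of all genes). With 1 array on each side these comparisons have no replicate check.

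**Figure D4:**
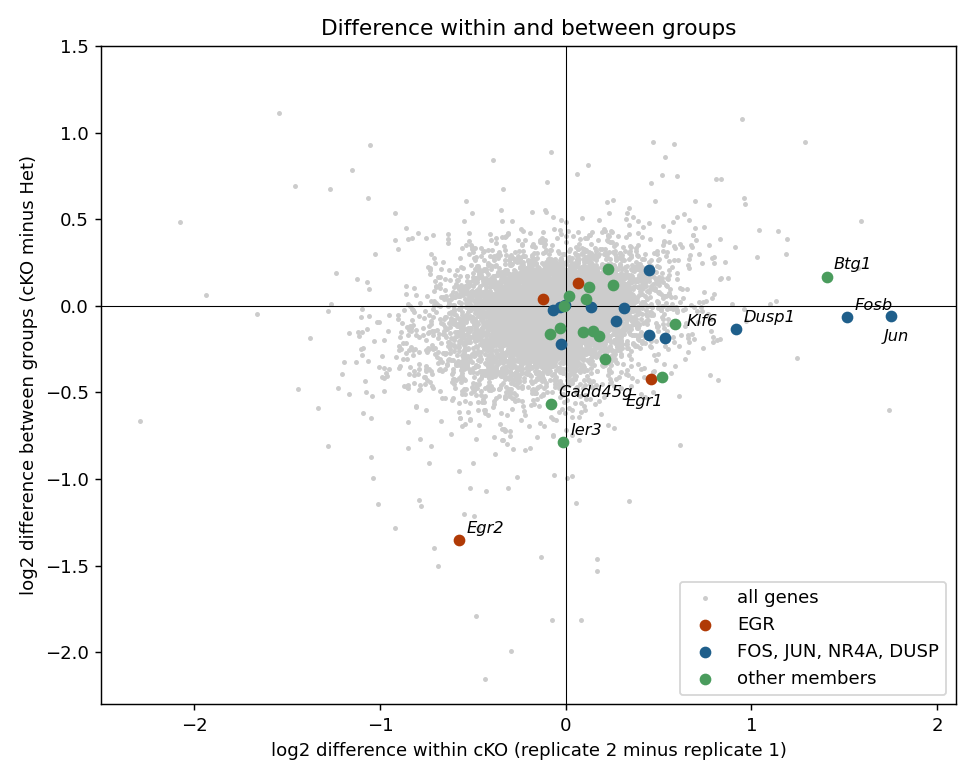
Difference within cKO (x axis, log2, replicate 2 minus replicate 1) against the difference between the groups (y axis, log2, cKO minus Het) for all genes in grey and the 34 genes in colour; 1 gene lies outside the axes. Jun, Fosb, Btg1 and Dusp1 lie far to the right near 0 on the y axis, and Egr2 lies low on the y axis and to the left.

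Heat shock genes, which encode chaperones and are induced by protein stress, were divided between the same arrays. The mean of 13 measured genes out of 15 listed was -0.10 in Het 1, 0.10 in Het 2, -0.22 in cKO 1 and 0.23 in cKO 2. None of the 13 passed the test; groups separated for 1 gene lower (7.69%, against 15.6% of all genes) and 2 higher in cKO (15.4%, against 17.8%), so neither share was above that of all genes. Hspa1a, the inducible HSP70 gene, stood at -0.29 and 0.29 in Het and at -0.57 and 1.01 in cKO, the 4th largest rise from cKO 1 to cKO 2 of all genes. Hsp90aa1, the inducible HSP90 gene, stood at -0.18 and 0.18 in Het and at -0.44 and 0.46 in cKO. From cKO 1 to cKO 2, 5 of 13 heat shock genes were at least 1.5-fold higher (38.5%, against 0.547% of all genes). By the same factor 0 were lower, against 1.63% of all genes. Hspa1a and Hsp90aa1 are named after their values were seen. The part of tissue handling in the values of the 34 genes was not tested.

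Among 31 other early response genes 0 passed the test, with 3 separated lower (9.68%, against 15.6% of all genes), 5 higher (16.1%, against 17.8%) and a median difference of 0.01. Cebpd, a transcription factor gene of acute inflammation, had the largest difference among those with separated groups, at 0.29 and 0.31 in Het and -0.32 and -0.29 in cKO. Its arrays agreed closely within each group, and the difference was -0.60 ± 0.04 (adjusted p = 0.848, limma). Plk2, a stress-induced kinase gene, differed by 0.32 ± 0.20, Sertad1 by -0.28 ± 0.14, and Tiparp, a target of the aryl hydrocarbon receptor, by 0.22 ± 0.04. Nfkbia, the NF-kappaB inhibitor gene, stood at -0.57 in cKO 1 and 0.40 in cKO 2. It was 1 of 4 genes of this list at least 1.5-fold higher in cKO 2 than in cKO 1 (12.9%, against 0.547% of all genes).

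The signalling genes upstream differed in both directions. Of 14 measured genes of the SRF and ERK route, 0 passed, 4 were separated lower (28.6%, against 15.6% of all genes) and 2 higher (14.3%, against 17.8%). Rps6ka3, an ERK-activated kinase gene, differed by -0.21 ± 0.09, and the MEK genes Map2k1 and Map2k2 by 0.21 ± 0.12 and -0.14 ± 0.07. Larger differences came with overlapping groups, 0.38 ± 0.35 for Rps6ka5 and 0.29 ± 0.32 for Braf. The SRF gene itself, Srf, had overlapping groups at -0.21 and 0.05 in Het and -0.05 and 0.30 in cKO. Of 12 genes for feedback on ERK, 0 passed, 1 was separated lower (8.33%, against 15.6% of all genes) and 2 higher (16.7%, against 17.8%). Spry4, an inhibitor of receptor tyrosine kinase signalling, differed by -0.32 ± 0.12 and the ERK phosphatase gene Dusp6 by 0.11 ± 0.07. Dusp10, at 0.49 ± 0.33, and Spred1, at 0.36 ± 0.24, were further from 0 with overlapping groups. Of 10 possible partners of AP-1, 0 passed and 1, Mafg, was separated lower (10%, against 15.6% of all genes), at -0.08 ± 0.05. Rps6ka5, Braf, Dusp10, Spred1, Nab1, Srf and Nfkbia are likewise named after their values were seen.

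Because Egr2 is also a Schwann cell factor, glial markers are given beside it. Of 14 measured Schwann and glial markers, 7 were lower and 7 higher in cKO, 0 passed the test, and groups separated for 2 lower (14.3%, against 15.6% of all genes) and 1 higher (7.14%, against 17.8%). The mean of the list was 0.09 and 0.02 in Het and 0.02 and -0.11 in cKO. Fabp7, a fatty acid binding protein gene of glia, stood at 0.36 and 0.38 in Het and at -0.36 and -0.55 in cKO, a difference of -0.82 ± 0.08 (adjusted p = 0.897, limma). Erbb3 was the other marker separated lower, at -0.12 ± 0.06, and Pou3f1 was separated higher, at 0.03 ± 0.04. Sox10, the defining transcription factor of the lineage, stood at -0.04 and 0.20 in Het and 0.04 and -0.09 in cKO. The myelin gene Mbp stayed between -0.05 and 0.04. S100b and Pmp22 stood at 0.72 and 0.47 in Het 1, -0.24 and -0.30 in Het 2, 0.24 and 0.30 in cKO 1, and -0.49 and -0.56 in cKO 2. The groups overlapped for both. Sox10, Mbp, S100b and Pmp22 are named after their values were seen. The part of glial cells in the Egr2 value was not tested.

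Markers of other cells also differed, some with single arrays and some between the groups. All 12 keratinocyte markers were highest in Het 2, with a mean of 0.38 there against -0.13 in Het 1, -0.06 in cKO 1 and 0.01 in cKO 2. Egr2 was also highest in Het 2, at 0.69, against 0.48 in Het 1, -0.48 in cKO 1 and -1.05 in cKO 2. Of the 34 early genes 14 were highest in Het 2 (41.2%, against 21.2% of all genes). Melanocyte markers had a mean of 0.26 in Het 2 and 0.12 in cKO 2 against -0.15 in Het 1 and -0.13 in cKO 1. The fibroblast markers had a mean of 0.05 and 0.20 in Het and of -0.00 and -0.16 in cKO. Of these 10 genes 9 were lower (90%, against 47.7% of all genes), and 0 passed the test. Their groups separated for 4 lower (40%, against 15.6% of all genes) and 1 higher (10%, against 17.8%). Dermal papilla markers were divided, with 9 of 18 lower and 9 higher, and 0 passed the test. Groups separated for 4 lower (22.2%, against 15.6% of all genes) and 4 higher (22.2%, against 17.8%). The separated markers furthest from 0 were Sostdc1 at -2.15 ± 0.49, Vcan at -0.77 ± 0.26, Wif1 at 0.75 ± 0.22 and Rspo3 at -0.66 ± 0.13. Sostdc1 had the lowest difference of all 19938 genes. Smooth muscle and pericyte markers were lower in 8 of 9 cases (88.9%) and Merkel cell markers in 4 of 7 (57.1%), against 47.7% of all genes. Groups separated for 2 smooth muscle and pericyte markers, both lower (22.2%, against 15.6% of all genes). Means of the endothelial and immune markers lay between -0.03 and 0.05 in every array. The part of these cells in the values of the 34 genes was not tested.

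Further motif counts describe the 28 promoter windows. The EGR site GCGNGGGCG, searched on both strands and sharing letters with the GC box GGGCGG, was in 12 of 28 genes (42.9%, against 6.27% of all genes). Differences of these 12 genes ran from -0.41 (Btg2) to 0.21 (Klf4), with a median of -0.11. The AP-1 sites TGACTCA and TGAGTCA, each the reverse complement of the other, were in 0 of 28 genes, against 5.95% of all genes. The SOX core ACAAAG or ACAATG, on either strand, was in 6 of 28 (21.4%, against 31.7% of all genes), and the Egr2 windows were not among them.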

How the data were processed

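RNA of the 4 sorted samples was amplified, labelled with biotin and hybridised, per the labels' protocols. The authors deposited 1 log2 value per probe set and array, made with RMA per the submitters' processing notes; the base of the logarithm is assumed from RMA. Each of the 28853 probe sets has a median of 0 over the 4 arrays within 1e-06; which step centred them is not given in the sources used here. No dim probe sets could be left out, because no level remains. The platform annotation named 1 gene for 21789 probe sets, several for 1621 and none for 5443, which gave 19938 genes.

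Groups were compared with limma 3.58.1 in R 4.3.3 (lmFit, eBayes, group as the only term, two-sided, Benjamini-Hochberg over 19938 genes, threshold 0.05), with 2 residual degrees of freedom and 1.52 from the prior; the fit was tested on simulated data. Symbols of other lists were matched directly or by gene ID in the GRCm38.p6 gene table. Promoter windows are RefSeq's. Alternatives were arrays centred on their medians, the most variable probe set of a gene, a block for the replicate number, each array left out, an unmoderated statistic and a robust prior. The members, classes and lists were chosen with earlier results of these data known. Values are given for EGR, FOS, JUN, NR4A and DUSP genes, for other members with separated groups and a difference of at least 0.3, and for up to 4 separated genes of each further list where they matter. The 1.5-fold limit between single arrays was set after the values were seen. Figures were drawn with matplotlib 3.10.9.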

Additional observations from a re-analysis of the deposited data

How the results depend on the processing

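Centring the arrays on their medians, taking the most variable probe set, a robust prior and an unmoderated statistic turned no direction of the 34 genes, and 0 of 34 genes passed under any alternative, block and left-out arrays included. The unmoderated statistic put 2 of the 34 genes under an unadjusted p of 0.05, and 4.70% of all genes. With the replicate number as a block, Egr2 stayed at -1.35 ± 0.24 (limma, adjusted p = 0.525; 0.525 to 1.000 over all alternatives), 0 genes passed and 7 had an unadjusted p under 0.05 (8.15% of all genes) against 3 without the block (5.28% of all genes). The labels do not say that the numbers pair the samples. The replicate differences of the groups correlated at 0.30 over all genes and at 0.46 over the 34 genes. Genes are not independent replicates.

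Leaving out each array in turn, with a lone array assumed to vary like the other group, moved the count of genes with separated groups from 10 to 20 to 24, where 62.0% to 71.1% of all genes separate with 3 arrays. The median of the 34 genes moved between -0.20 and 0.028. A sign can turn only where the groups overlap, as for 24 of the 34 genes (70.6%, against 66.5% of all genes). The share of all genes whose sign turned was not counted. Signs turned for 22 of the 34 genes, whose ranges were: Btg1, -0.53 to 0.87; Jun, -0.94 to 0.82; Fosb, -0.82 to 0.69; Dusp1, -0.59 to 0.32; Fos, -0.45 to 0.083; Nr4a1, -0.40 to 0.056; Junb, -0.22 to 0.051; Jund, -0.019 to 0.43; Dusp5, -0.17 to 0.15; Dusp2, -0.077 to 0.062; Egr3, -0.0023 to 0.27; Egr4, -0.023 to 0.10; Nr4a3, -0.061 to 0.076; Nr4a2, -0.055 to 0.011; Fosl1, -0.026 to 0.0098; Klf6, -0.40 to 0.19; Atf3, -0.31 to 0.0056; Socs3, -0.30 to 0.0064; Ptgs2, -0.010 to 0.25; Arc, -0.18 to 0.18; Ier5, -0.036 to 0.14; and Zfp36, -0.018 to 0.094. The other 12 kept their sign without any single array. For the 10 with separated groups, among them Egr2, Egr1, Ier3, Ier2, Gadd45g and Fosl2, this follows from the separation. It is no further check on them. Signal over background cannot be read from centred values, so a small difference may belong to a gene that the arrays did not detect.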
